A study of Mus musculus with 6 samples.

Results

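The 42 genes described here are the S phase and M phase proliferation genes of mouse chondrocytes, measured in cells that lacked the zinc transporter Slc39a13 and in wild-type cells. They were taken by name from a written list of genes with roles in the cell cycle, and the list was written with earlier results of these data known. The list was split into 19 genes of the G1/S transition and DNA replication, called S phase genes below, and 23 genes of G2 and mitosis, called M phase genes. Every probe set annotated to 1 of these genes alone was read, and the brightest by its mean over the 6 arrays stood for the gene. All S phase genes and 22 of the M phase genes were among the 12715 genes tested. Ccnb1, which encodes the mitotic cyclin B1, is not analysed here.

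The samples were total RNA of primary chondrocytes freed with collagenase from rib cages of newborn mice and cultured in alpha-MEM with 10% fetal calf serum. 3 arrays held RNA of Slc39a13-KO chondrocytes and 3 held RNA of wild-type chondrocytes. The KO allele came from gene targeting in R1 embryonic stem cells, in which a Neo cassette replaced the stretch between exons 5 and 9, so that exons 6 to 8 were lost in every cell of the animal. No sort of the cells and no drug treatment is described for either group. The sources used here do not say whether the arrays of a group came from separate animals or cultures, so the p-values rest on the variation among these arrays alone, part of which may be technical. Xist, the RNA that silences an X chromosome in female cells, had signals of 107.3, 6445 and 79.2 on KO replicates 1, 2 and 3, against 79.0, 100.7 and 5194 on wild-type replicates 1, 2 and 3. It was thus high on 1 array of each group, and its part in the values below was not tested.

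Signals are intensities on the linear scale of Affymetrix MAS5 software, in arbitrary units, and were scaled by the authors so that every array has the same trimmed mean. Slc39a13 itself had signals of 100.5, 196.3 and 165.5 in KO cells, against 901.3, 1081 and 990.5 in wild-type cells, so it was lower on every array labelled KO. Where its probe set lies relative to the deleted exons is not given in the sources used here. KO replicate 1 was the least like the rest, with correlations of 0.947 to 0.957 to the others over all genes tested, against 0.965 to 0.983 among the other 5. Its median signal over all probe sets was 108.5, against 80.7 to 88.4 on the others. Over all genes, 590 were higher in KO cells (4.64%) and 594 lower (4.67%) at an adjusted p under 0.05, or 9.31% in either direction (limma with Benjamini-Hochberg adjustment over all 12715 genes). The median log2 fold change of all genes, KO minus wild type, was 0.01. When each array was centred on its median instead, 106 genes were higher and 228 lower, and the median of all genes was -0.08.

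A cell enters S phase when cyclin-dependent kinases release the E2F transcription factors from the retinoblastoma protein, and E2F then drives the genes for the replication machinery and for nucleotide synthesis. Genes for mitosis are switched on later, in G2, by complexes that contain B-MYB and FOXM1 and that bind the cell cycle genes homology region, or CHR. In cartilage, proliferating chondrocytes form the columns that lengthen a growing bone, and they leave the cell cycle before they enlarge. The products of most of these genes rise and fall once per cycle, so a culture with more cycling cells carries more of their RNA. In bulk RNA such as this, a larger share of cycling cells and more RNA per cycling cell cannot be told apart.

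A promoter can be searched for words that such regulators can bind, though a match of letters does not show a bound site. Before the values, 5 promoters are shown. Each is the last 200 bases before the annotated transcription start in RefSeq, genome build GRCm38.p6, written 5′ to 3′ along the gene. Capitals mark the E2F words TTTCCCGC and TTTGGCGC, the CHR word TTTGAA and the CCAAT word bound by NF-Y, each on either strand. Mki67 and Cdk1 are shown as M phase genes that were higher in KO cells, Cdc20 as an M phase gene that was lower, and Mcm2 and Mcm6 as subunits of the same helicase that came out differently.
Mki67, chr7:135716380-135716579, minus strand: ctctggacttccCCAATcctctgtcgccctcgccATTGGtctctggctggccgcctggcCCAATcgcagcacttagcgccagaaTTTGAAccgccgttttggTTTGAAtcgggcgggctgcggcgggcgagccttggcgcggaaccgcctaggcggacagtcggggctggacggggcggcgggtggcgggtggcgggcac
Cdk1, chr10:69352913-69353112, minus strand: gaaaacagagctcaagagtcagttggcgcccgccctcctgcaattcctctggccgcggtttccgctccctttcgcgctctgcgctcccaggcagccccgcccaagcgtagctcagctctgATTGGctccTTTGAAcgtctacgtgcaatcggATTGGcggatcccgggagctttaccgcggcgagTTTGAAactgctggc
Cdc20, chr4:118437344-118437543, minus strand: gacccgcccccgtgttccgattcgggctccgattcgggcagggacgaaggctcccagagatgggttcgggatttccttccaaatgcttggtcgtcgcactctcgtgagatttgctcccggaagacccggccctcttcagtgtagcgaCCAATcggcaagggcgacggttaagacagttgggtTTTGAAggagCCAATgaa
Mcm2, chr6:88898781-88898980, minus strand: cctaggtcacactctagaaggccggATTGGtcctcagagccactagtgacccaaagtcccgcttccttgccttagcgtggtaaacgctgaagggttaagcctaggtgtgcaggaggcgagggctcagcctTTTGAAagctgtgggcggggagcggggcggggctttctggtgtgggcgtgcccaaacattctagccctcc
Mcm6, chr1:128359706-128359905, minus strand: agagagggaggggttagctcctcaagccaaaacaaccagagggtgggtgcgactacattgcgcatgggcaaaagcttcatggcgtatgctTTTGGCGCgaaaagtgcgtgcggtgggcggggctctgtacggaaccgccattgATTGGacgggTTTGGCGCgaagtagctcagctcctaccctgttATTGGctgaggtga

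Mki67, Cdk1 and Cdc20 each carry the CHR word downstream of a CCAAT word, whichever way their signal went. Mcm6 carries the E2F word at 2 places and no CHR word, and Mcm2 carries 1 CHR word and no E2F word in this stretch. The counts of these words over all the genes come after the values.

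Slc39a13-KO chondrocytes had higher signals for a minority of these genes, from S phase and from M phase alike, by less than 2-fold. Of the 41 genes tested, 10 rose in KO cells (24.4%, against 4.64% of all genes), 2 fell (4.88%, against 4.67%) and 29 did not pass the test. The median log2 fold change of the 41 was 0.14, and 30 of them had a positive value. All 3 KO arrays lay above all 3 wild-type arrays for 17 of the 41 genes, against 16.0% of all genes, and below them for 3, against 14.9%. Groups without overlap in either direction were thus found for 20 of the 41 genes, against 30.9% of all genes. None of the 41 reached 2-fold, whereas 1.42% of all genes were at least 2-fold higher and 1.98% at least 2-fold lower. Genes with higher signals passed the test more often. Among the 4190 genes with a mean log2 value of at least 10, 8.21% were higher, and 9 of the 34 genes of the list at that level were higher (26.5%).

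The number of genes that passed depended on the settings, while none of the 12 that passed changed direction under any of them. Leaving out KO replicate 2 left 5 genes of the list higher and 2 lower, beside 2.89% of all genes higher. Leaving out wild-type replicate 1, 2 or 3 left 4 higher and 0 lower each time. The shares of all genes higher were then 1.99%, 1.76% and 2.09%. The 4 genes of the list were Mki67, Top2a, Tk1 and Rrm1, which passed whichever array was left out. Only Mki67 passed when limma was run without its trend of variance on signal, and 0 of the 41 passed after median centring. Of all genes, 0.959% were higher without the trend and 0.834% after centring.

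**Figure D1:**
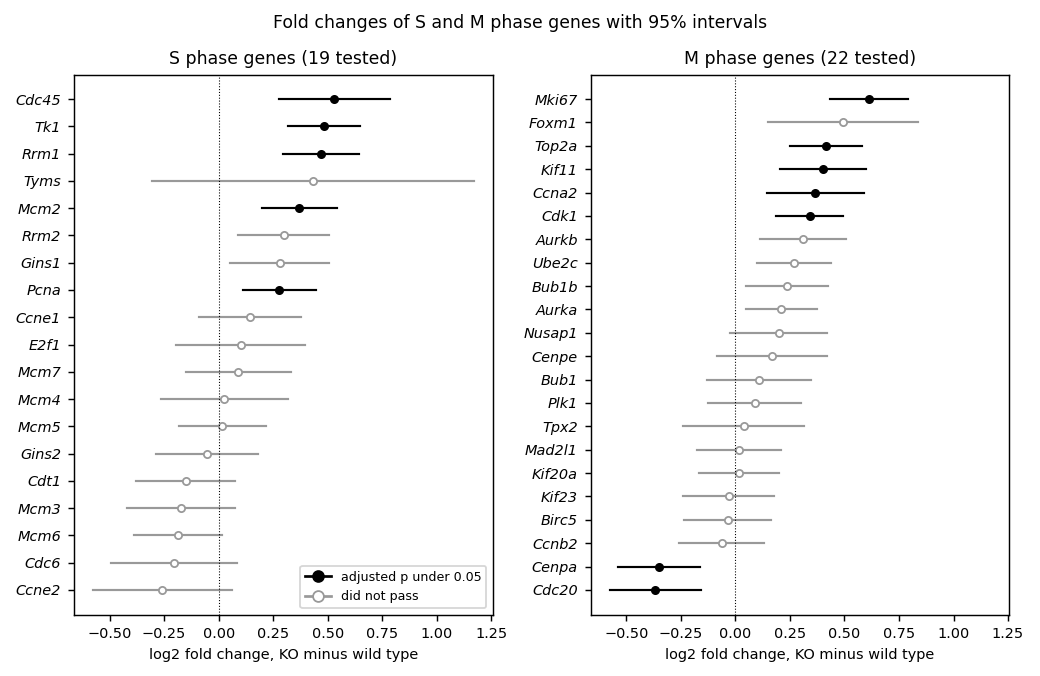
Log2 fold change, KO minus wild type, of the 19 S phase and 22 M phase genes tested, with 95% intervals from limma on the x axis and 1 gene per row. Filled black points are the 12 genes with an adjusted p under 0.05, and of these only Cdc20 and Cenpa lie left of 0.

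Among the S phase genes, 5 of the 19 rose in KO cells (26.3%, against 4.64% of all genes) and 0 fell (against 4.67%). Those that rose were Cdc45, Tk1, Rrm1, Mcm2 and Pcna. Of the 4 genes for nucleotide supply, Tk1 and Rrm1 passed and Rrm2 and Tyms did not, and of the 6 subunits of the replicative helicase only Mcm2 passed. The median of the 19 was 0.10, with 13 positive values. KO arrays were all above wild-type arrays for 7 of the 19 and all below for 1, which was Cdc6. Over all genes the shares were 16.0% above and 14.9% below.

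Tk1 encodes thymidine kinase, the salvage enzyme that makes thymidine monophosphate. Its signal was 3131, 3151 and 3191 in KO cells, against 2222, 2382 and 2166 in wild-type cells. The KO arrays lay within a narrow band well above the wild-type arrays. The log2 fold change was 0.48 ± 0.07 (SE, 3 arrays per group), with an adjusted p of 0.00450 by limma.

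Rrm1 encodes the large subunit of ribonucleotide reductase, which makes deoxyribonucleotides. It was measured at 6124, 6722 and 6381 in KO cells and at 4825, 4771 and 4303 in wild-type cells, without overlap. Rrm1 was higher by 0.47 ± 0.08 on the log2 scale, with an adjusted limma p of 0.00618. A second probe set of Rrm1 gave 4138, 4949 and 5738 in KO cells, against 4401, 5053 and 4477 in wild-type cells, and these groups overlapped. There the log2 fold change was 0.08, with an adjusted p of 0.735 over the 23294 probe sets tested.

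Rrm2, the small subunit of the same enzyme, gave 11652, 14627 and 13859.9 in KO cells, against 10952, 10794 and 10765 in wild-type cells. Its groups did not overlap, but the log2 fold change of 0.30 ± 0.09 did not pass the test (adjusted p 0.0761 by limma). The KO arrays were spread more widely than the wild-type arrays, with KO replicate 1 the lowest. Another of its 3 probe sets, the dimmest, had signals of 6575, 7399 and 5196 in KO cells and 3998, 3789 and 3353 in wild-type cells. That probe set did pass, with a log2 fold change of 0.77 and an adjusted limma p of 0.00818 over probe sets, and the remaining one had 0.43 (adjusted p 0.0608).

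Cdc45 encodes a partner of the MCM helicase at the replication fork, where it is needed to start unwinding. Signals of 846, 871 and 722 in KO cells stood against 535, 601 and 542 in wild-type cells. With 0.53 ± 0.11 on the log2 scale it had the largest fold change among the S phase genes (adjusted limma p 0.0192). Pcna, the sliding clamp that holds DNA polymerase on its template, read 16701, 17819 and 16617 in KO cells, against 13525, 14292 and 14359 in wild-type cells. Its groups were apart, with a log2 fold change of 0.28 ± 0.08 and an adjusted p of 0.0466 by limma, close to the threshold. Pcna did not pass without KO replicate 2 or without any 1 of the wild-type arrays, so in 4 of the 6 settings that left out an array.

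The MCM2-7 complex is the helicase that opens DNA at origins, and its 6 subunits act in equal numbers. Mcm2 had 2463, 2667 and 2633 in KO cells, against 1911, 2016 and 2081 in wild-type cells, a log2 fold change of 0.37 ± 0.08 (adjusted limma p 0.0169). A second Mcm2 probe set gave 0.30 with overlapping groups and an adjusted p of 0.201. Mcm6 stood at 4655, 5065 and 5262 in KO cells and at 5063, 5962 and 6067 in wild-type cells, with a log2 fold change of -0.19 ± 0.09 that did not pass (adjusted p 0.234). Of the other 4 subunits, Mcm3 had -0.17, Mcm4 0.03, Mcm5 0.02 and Mcm7 0.09, all with overlapping groups. Mcm3 is read by 5 probe sets that did not go one way, with log2 fold changes from -0.17 for the brightest to 0.33 for another, and without probe sets that may bind several transcripts Mcm3 passed as higher.

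Licensing factors and cyclins of the G1/S transition did not pass either. Cdc6 and Cdt1, which load the MCM helicase onto origins, had -0.21 and -0.15 on the log2 scale. Cdc6 measured 650, 891 and 891 in KO cells, against 899.8, 945 and 935 in wild-type cells, so KO replicate 1 was far lower than the others. Ccne1 and Ccne2, the E cyclins that activate CDK2, had 0.14 and -0.26, and E2f1, the transcription factor that starts the program, had 0.10. Gins1 and Gins2, subunits of the GINS complex that joins CDC45 and MCM, had 0.28 and -0.05. Gins1 was higher on all 3 KO arrays but missed the threshold (adjusted limma p 0.121). Tyms, the thymidylate synthase gene, had signals from 55.3 to 118 on the 6 arrays, close to the filter on dim probe sets, and 0.43 ± 0.33. A shared probe set of Tyms was not used.

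**Figure D2:**
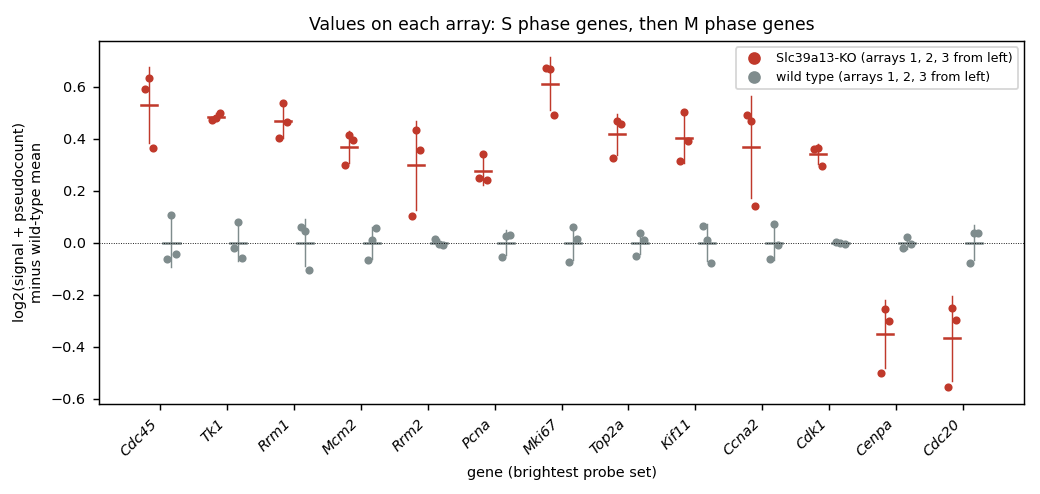
Values on each of the 3 KO (red) and 3 wild-type (grey) arrays, as log2(signal + pseudocount) minus the wild-type mean of the gene, for the 12 genes that passed and for Rrm2. Points are arrays, horizontal lines are means and vertical lines are 1 SD, and the KO points lie above the wild-type points for all genes shown but Cdc20 and Cenpa.

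Among the M phase genes, Mki67, Top2a, Kif11, Ccna2 and Cdk1 rose in KO cells and Cdc20 and Cenpa fell. That made 22.7% higher and 9.09% lower, against 4.64% and 4.67% of all genes. The other 15 of the 22 tested did not pass. The median of the 22 was 0.18, with 17 positive values. KO arrays were all above wild-type arrays for 10 of the 22 and all below for 2. For all genes those shares were 16.0% and 14.9%.

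Mki67 encodes Ki-67, the coat protein of mitotic chromosomes whose antigen marks cycling cells. Its signal was 5996, 5991 and 5299.7 in KO cells, against 3580.4, 3923 and 3798 in wild-type cells. The KO arrays were all clearly above the wild-type arrays. The log2 fold change of 0.61 ± 0.08 was the largest of the 41 genes, with an adjusted limma p of 0.00217.

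Top2a encodes topoisomerase II alpha, which untangles sister chromatids. It read 6856, 7574 and 7495 in KO cells and 5283, 5614 and 5508 in wild-type cells, with a log2 fold change of 0.42 ± 0.07 (adjusted limma p 0.00808). A second, dim probe set of Top2a gave 202, 378 and 375 in KO cells, against 275, 274 and 252 in wild-type cells. These groups overlapped because KO replicate 1 was the lowest array, and the adjusted p was 0.669.

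Cdk1 is the kinase that drives entry into mitosis, and Ccna2 is cyclin A2, which partners CDK2 in S phase and CDK1 in G2. Cdk1 had signals of 8167, 8189.95 and 7806 in KO cells, against 6380.2, 6358 and 6342 in wild-type cells. The 3 wild-type values were almost the same, and the log2 fold change was 0.34 ± 0.07 (adjusted limma p 0.0136). Ccna2 read 6233, 6121 and 4884 in KO cells, against 4236, 4651 and 4406 in wild-type cells, or 0.37 ± 0.10 with an adjusted p of 0.0485. KO replicate 3 of Ccna2 came close to the highest wild-type array. Its second probe set was also higher, by 0.28, with an adjusted p of 0.0451 over probe sets.

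Kif11, the motor that pushes spindle poles apart, had 1540.05, 1759 and 1627 in KO cells, against 1296, 1249 and 1173 in wild-type cells. It rose by 0.40 ± 0.09 on the log2 scale (adjusted limma p 0.0204). All 3 probe sets of Kif11 passed, since the other two gave 0.54 and 0.55, with adjusted p-values over probe sets of 0.0165 and 0.0108.

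Cdc20 and Cenpa were the M phase genes of the list that fell in KO cells. Cdc20, the activator of the anaphase-promoting complex, had 7497, 9273 and 8963 in KO cells, against 10451, 11324 and 11318 in wild-type cells. Its log2 fold change was -0.37 ± 0.09 (adjusted limma p 0.0365), and KO replicate 1 was the lowest array. The probe set behind this value may bind several transcripts. A second Cdc20 probe set had 5200.4, 4781 and 4727 in KO cells and 5385, 5165 and 4976 in wild-type cells, which overlapped, with -0.08 and an adjusted p of 0.588. Cenpa, the histone H3 variant that marks centromeres, had 2375, 2821 and 2732 in KO cells, against 3316, 3419 and 3357 in wild-type cells. Its log2 fold change was -0.35 ± 0.08, with an adjusted limma p of 0.0289.

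Some M phase genes were higher on every KO array without passing. These were Aurkb and Aurka, kinases of the chromosomal passenger complex and of the spindle poles, Ube2c, the ubiquitin-conjugating enzyme of the anaphase-promoting complex, Foxm1, the transcription factor of G2 genes, and Bub1b, a checkpoint kinase. Their log2 fold changes were between 0.21 and 0.49, with adjusted limma p-values of 0.0546 to 0.110. A second tested Bub1b probe set went the other way, with -0.16 and overlapping groups. The other 10 had overlapping groups and values from -0.06 for Ccnb2, a mitotic cyclin, to 0.20 for Nusap1, a spindle protein. Among them Plk1, the polo-like kinase, had 0.09, Bub1 and Mad2l1, which hold the spindle checkpoint, had 0.11 and 0.02, and Birc5, which encodes survivin, had -0.04. The kinesins Kif20a and Kif23 of cytokinesis had 0.02 and -0.03, the kinetochore motor Cenpe had 0.17 and the spindle factor Tpx2 had 0.04.

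Set side by side, 26.3% of the S phase genes and 22.7% of the M phase genes tested were higher, and 0 and 9.09% were lower. The medians were 0.10 and 0.18, and the difference between the lists was not tested. Their order depended on the probe sets, since without those that may bind several transcripts the S phase median was 0.19 and the M phase median 0.11. Without KO replicate 1 the S phase median was 0.20 and the M phase median 0.21, so that they lay closer together in the same order.

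On KO replicate 1 the median of the S phase genes was near the wild-type level, but single genes lay well to both sides. Their log2 values minus the wild-type mean ran from -0.62 for Ccne2 to 0.59 for Cdc45. Taken as the median over each list of the log2 value minus the wild-type mean of the gene, the S phase genes stood at -0.005, 0.30 and 0.24 on KO replicates 1, 2 and 3. Wild-type replicates 1, 2 and 3 stood at 0.004, 0.02 and -0.03. For the M phase genes the same medians were 0.17, 0.26 and 0.17 on the KO arrays and -0.03, 0.03 and -0.002 on the wild-type arrays. KO replicate 2 was the highest of the 6 arrays for 9 of the 19 S phase genes and 12 of the 22 M phase genes, and KO replicate 1 was the lowest for 8 and 7. Of all 12715 genes, KO replicate 2 was the highest for 1874 and KO replicate 1 the lowest for 3026. Over all genes tested the medians of the KO arrays were 0.05, 0.003 and 0.01. Without KO replicate 1, 12 genes of the list were higher and 2 lower, beside 4.43% of all genes higher. Aurkb, Nusap1 and Rrm2 were added and Ccna2 was lost.

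**Figure D3:**
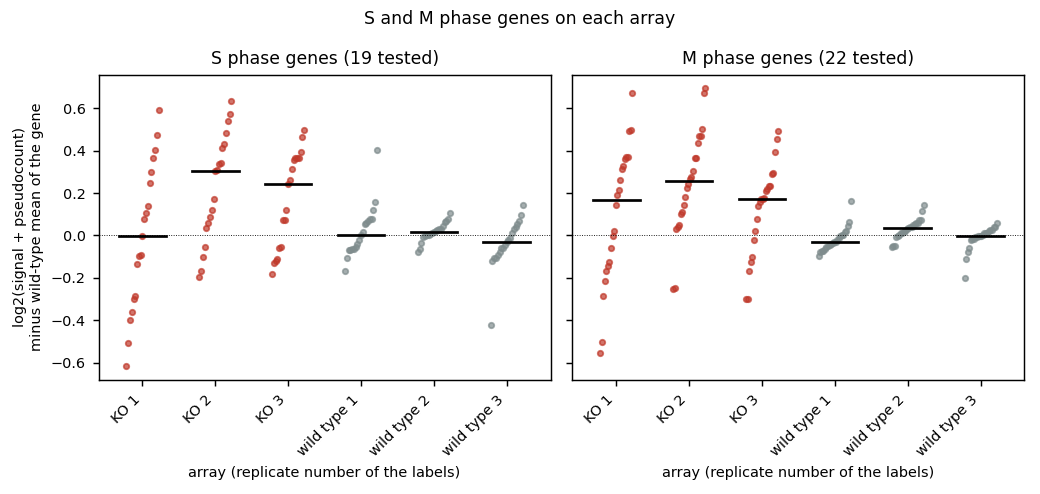
Every S phase and M phase gene tested on each array, as log2(signal + pseudocount) minus the wild-type mean of the gene, with KO arrays in red and wild-type arrays in grey. Points are genes and black bars are list medians, which for KO replicate 1 lie at -0.005 in S phase genes and 0.17 in M phase genes.

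Further genes of the same processes were read from separate lists. Of 42 other replication genes tested, 7 rose and 1 fell in KO cells (16.7% and 2.38%, against 4.64% and 4.67% of all genes). Their median was 0.16. Pola1 and Prim1, subunits of the polymerase that lays down primers, rose by 0.55 and 0.53, Tipin, a fork protection factor, by 0.48, and Asf1b, a histone chaperone, by 0.48. The gene that fell was Cdc25a, the phosphatase that activates CDK2, with -0.42 (adjusted limma p 0.0294).

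Of 51 other mitotic genes tested, 12 rose (23.5%, against 4.64% of all genes) and 0 fell (against 4.67%), with a median of 0.14. Pttg1, which encodes securin, the inhibitor of separase, had signals of 12188, 9356 and 8396 in KO cells, against 3786, 3940.4 and 3964 in wild-type cells. At 1.34 ± 0.12 on the log2 scale it was more than 2-fold higher (adjusted limma p 0.000374), and all KO arrays lay far above the wild-type arrays. Kif18b and Kif22, mitotic kinesins, rose by 0.60 and 0.58, and Pbk, a mitotic kinase, by 0.59. The probe sets behind the values of Pttg1, Kif22 and Pbk may bind several transcripts.

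Of 22 tested genes for E2F factors, retinoblastoma proteins and subunits of the DREAM complex and related controls, 1 rose and 1 fell (4.55% each, close to the 4.64% and 4.67% of all genes). Fzr1, which activates the anaphase-promoting complex in G1, had 0.36, and E2f6, a repressor of the E2F family, had -0.51. The upstream D cyclins and inhibitors of their kinases changed in both directions. Of 11 tested, 2 were higher (18.2%) and 3 lower (27.3%), against 4.64% and 4.67% of all genes. Ccnd1, which encodes cyclin D1, had 4045, 4288 and 4000.3 in KO cells, against 9394, 10318 and 10597 in wild-type cells. Its log2 fold change of -1.29 ± 0.08 ran opposite to those of Mki67 and Tk1, with an adjusted limma p of 6.56e-05. Cdkn1a, the gene of the CDK inhibitor p21, was lower too, at -0.58, as was Cdk6, a partner of the D cyclins, at -0.43. Cdkn2d, which encodes the CDK4 and CDK6 inhibitor p19, had 0.40.

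Promoter windows of 250 bases before to 50 bases after the annotated start were on hand in RefSeq for 33 of the 42 genes, 15 of S phase and 18 of M phase. The E2F words TTTCCCGC and TTTGGCGC were searched on both strands, and other spellings were not counted with them. A window counted as without the word may thus hold another spelling. These words were in 1.56% of all 32851 windows. Counted per gene, they were in 3.36% of the 10270 tested genes with a window. In the lists they were in 6 of the 15 S phase windows and in 0 of the 18 M phase windows. The 6 were Mcm3, Mcm5, Mcm6, Mcm7, Cdc6 and Cdt1. Their log2 fold changes lay between -0.21 and 0.09 and 0 of them passed, while the 9 S phase genes without the word lay between 0.10 and 0.53 and 5 passed. Over all tested genes with a window, 18 of the 345 with the word were higher (5.22%) and 22 lower. Without it, 450 of 9925 were higher (4.53%) and 457 lower. The division among the S phase genes was seen after the values and was not tested. It holds for the brightest probe set of each gene. Among genes with the word, other tested probe sets gave Mcm3 -0.11 to 0.33, Mcm5 0.19 and 0.81, Cdt1 0.13, Mcm6 -0.44 and Mcm7 -0.31 to 0.11. The Mcm5 probe set with 0.81 was dim, with signals from 33.1 to 141. Among genes without the word, others gave E2f1 -0.20 and Tyms -0.10, but Mcm2 0.30 and Rrm2 0.77. The ranges then overlapped. The shorter words TTCCCGC and TTGGCGC were held by 6.81% of all windows and 13.8% of the tested genes with a window. With them, Rrm1 joined the genes with the word, which then numbered 7 with 1 higher. Such a division was not seen among other replication genes, where the median was 0.23 with the longer word (8 genes) and 0.17 without it (27 genes).

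**Figure D4:**
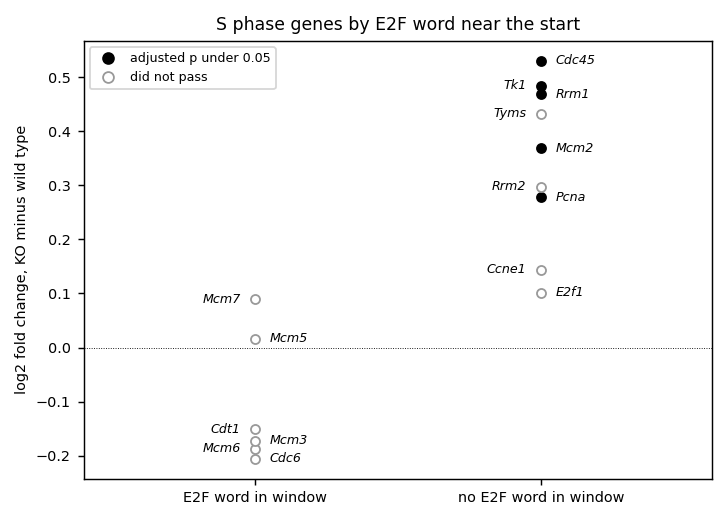
Log2 fold change, KO minus wild type, of the 15 S phase genes with a promoter window, divided by whether the window holds an E2F word (TTTCCCGC or TTTGGCGC). Each point is a gene, filled points have an adjusted p under 0.05, and the 6 genes with the word lie between -0.21 and 0.09 and the 9 without it between 0.10 and 0.53. Values are of the brightest probe set of each gene, and with other probe sets the ranges overlapped. Over all tested genes with a window, 5.22% with the word and 4.53% without it were higher.

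The CHR word was in 17.9% of all windows and 14.3% of the tested genes with a window. It was in 12 of the 18 M phase windows and in 2 of the 15 S phase windows, those of Cdc45 and Mcm2. The CCAAT word was in 37.4% of all windows and 42.6% of the tested genes with a window. It was in 15 of the 18 M phase windows and in 9 of the 15 S phase windows. Cdc20 and Cenpa, which fell in KO cells, held both words, and so did Mki67, Cdk1, Kif11 and Top2a, which rose. A match of letters is a description of the sequence and not of a bound site, and the search of Foxm1, Ccna2, Aurkb, Tpx2, Kif20a, Ccne2, Mcm4, Gins1 and Gins2 was not made here.

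Markers of cell types also differed between the groups. The counts below stand beside 4.64% of all genes higher and 4.67% lower. Chondrocyte markers were high in both, with a summed signal of 167000 to 230000 in KO cells, against 114000 to 140000 in wild-type cells, and 6 of 12 tested rose. Fibroblast and perichondrium markers summed to 73700 to 94500 in KO cells, against 52500 to 64000 in wild-type cells, with 5 of 9 higher and 2 lower. Mesothelial markers summed to 858 to 1480 in KO cells and 5300 to 8720 in wild-type cells, and 10 of the 11 tested fell, with a median log2 fold change of -2.51. Macrophage markers summed to 685 to 1040 in KO cells, against 699 to 899 in wild-type cells, with 5 of 10 genes under the filter on dim probe sets and 1 of the other 5, Cd14, lower. Endothelial markers summed to 723 to 797 in KO cells, against 730 to 850 in wild-type cells, with 6 of 8 under the filter and 0 of the other 2 past the threshold. Skeletal muscle markers summed to 2350 to 2780 in KO cells, against 2230 to 2400 in wild-type cells, but the signs were mixed. Of the 6 tested, Tnnt3 rose and Acta1 fell, and the median log2 fold change was -0.67. No marker was listed at 0, and the part of these differences in the values of the proliferation genes was not tested.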

How the data were processed

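Gene expression was measured in primary rib chondrocytes on 6 Affymetrix mouse genome arrays, 3 of Slc39a13-KO and 3 of wild-type cells, grouped by GEO's labels. The deposited values are intensities on a linear scale that the authors made with MAS5 per the processing notes (version not given). The methods name gcRMA, but the deposited arrays have equal trimmed means (500.003) and unequal quantiles. Of 45101 probe sets, the platform annotation gave 34945 to 1 gene and 932 to several. Values were taken as log2(signal + 7.96), where 7.96 is the 10th percentile over the table, and means had to reach the 40th percentile (5.80). The brightest of the remaining 23294 stood for each of 12715 genes. The contrast of KO minus wild type was fitted in R 4.3.3 by limma 3.58.1 (lmFit, eBayes with trend), with Benjamini-Hochberg adjustment over all genes and a threshold of 0.05, and the script was tested on simulated data. Other probe sets of a gene were tested over all 23294. The number of arrays limits the precision. SDs and intervals are over 3 arrays per group.

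The genes and lists were chosen with earlier results of these data known, so counts over a list are descriptions and no list was tested. Values on each array are given for the genes of each list that passed, and for the 6 with the lowest p where fewer than 6 passed. Mki67, Top2a, Cdk1, Pcna and Mcm2 were always to be named, and Ccnb1 would have been. Values of Mcm6 and Cdc6, Cdc25a and the second probe sets shown were added after their values were seen. Of the other lists up to 4 genes past the threshold with the largest changes are named. Alternative settings were the filter, the pseudocount, quantile normalization, median centring, the choice of probe set, a replicate block, eBayes without trend and each array left out in turn.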

Additional observations from a re-analysis of the deposited data

How the results depend on the processing

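The medians of both lists and the log2 fold changes of Mki67, Tk1, Rrm1 and Top2a were positive in every setting tried. Median centring gave 106 genes higher and 228 lower over all genes, 0 S phase genes higher, 0 M phase genes higher and 0 lower. The S phase median was then barely positive, at 0.0064. The M phase median was 0.0879 and that of all genes -0.083. With centring and without KO replicate 1, a setting chosen after seeing the data, 9 of the proliferation genes were higher, beside 4.14% of all genes. Of the 9, 8 were shared with the 12 reported. In that setting 0 M phase genes were lower and the M phase median was 0.24. Without the trend, 122 genes were higher and 142 lower over all genes, with 0 S phase genes higher and 1 M phase gene higher and 0 lower. Means over probe sets gave 3 S phase genes higher and 0 M phase genes lower, no filter gave 1 M phase gene lower, and dropping those open to cross-hybridization gave 1 lower and an M phase median of 0.11. The causes were not tested.

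Replicate numbers are shared by the groups, and the main fit did not use them as pairs. With the group mean of each gene subtracted, the values of same-numbered KO and wild-type arrays correlated at 0.03, 0.02 and -0.07. Arrays with different numbers gave -0.07 to 0.06. With 3 arrays per group, such correlations cannot show whether the arrays were paired. With the replicate block 345 genes were higher and 350 lower over all genes, 2 M phase genes were higher and 0 lower, and 6 of the proliferation genes were higher in all.

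Leaving out each array in turn gave 224 to 779 genes higher and 199 to 809 lower over all genes, 2 to 6 S phase genes higher, 2 to 8 M phase genes higher and 0 to 2 lower. The medians were 0.067 to 0.20 for S phase and 0.15 to 0.21 for M phase genes, and with centring as well 0.22 and 0.24 without KO replicate 1.

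Signs turned only for genes that did not pass. Median centring gave Mcm4 -0.069, Mcm5 -0.079, Mcm7 -0.0055, Plk1 -0.0067, Mad2l1 -0.077, Kif20a -0.079 and Tpx2 -0.057, and with KO replicate 1 also left out Ccnb2 0.016, Birc5 0.081 and Kif23 0.012. Means over probe sets gave E2f1 -0.048, Mcm4 -0.086, Mcm7 -0.048, Cenpe -0.028 and Nusap1 -0.11. Without the probe sets open to cross-hybridization Mcm3 had 0.33 and Bub1b -0.16. Other single probe sets gave Bub1b -0.16, Cdt1 0.13, Cenpe -0.22, E2f1 -0.20, Mcm3 0.33, Mcm4 -0.20, Mcm7 -0.081 and -0.31, Nusap1 -0.41 and Tyms -0.10. Over the settings that left out 1 array, the values of E2f1 (-0.0035 to 0.20), Mcm4 (-0.11 to 0.19), Mcm5 (-0.036 to 0.091), Mcm7 (-0.020 to 0.19), Gins2 (-0.14 to 0.011), Birc5 (-0.091 to 0.055), Mad2l1 (-0.054 to 0.099), Kif20a (-0.032 to 0.074), Kif23 (-0.12 to 0.040) and Tpx2 (-0.052 to 0.20) took both signs.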
